A study of Mus musculus with 4 samples.

Results

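The gasdermins are a family of proteins that make pores in membranes, and their transcripts were followed here in ureters of mouse embryos that lacked the ΔN form of p63. The 9 genes Gsdmc, Gsdmc2, Gsdmc3, Gsdmc4, Gsdma, Gsdma2, Gsdma3, Gsdmd and Dfna5 (now called Gsdme) were taken by name from the probe annotation of the arrays. Of these 9 genes, 8 had a probe of their own name, and no probe was named for Gsdmc2. The family was covered by 11 of 39429 probes. The probes that could be named through RefSeq stood for 22673 genes in all. The family was chosen by its log2 ratios of mutant over control on these same arrays, so the difference between genotypes in its own probes is described here and not tested.

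The mutant embryos, called cKO, were Pax2-cre/+; Trp63(dN-flox/dN-flox), and the control embryos were Trp63(dN-flox/?), where the labels leave the second allele open and list no cre. Both came from the NMRI strain at embryonic stage E18.5, and total RNA of whole dissected ureters was used. Each of 4 two-colour Agilent arrays carried cKO RNA in one channel and control RNA in the other. The cKO RNA was labelled with AlexaFluor647 on arrays 1 and 3 and with AlexaFluor555 on arrays 2 and 4. Array 2 held the male pair, and the other 3 arrays held female pairs. Pax2-cre acts where the Pax2 promoter is active, which includes the epithelium of the nephric duct and its derivatives. The labels do not say whether an RNA came from 1 embryo or from several, so errors here measure the spread between arrays, which may be technical in part.

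Gasdermins are made as inactive proteins in which a C-terminal domain holds back an N-terminal one. When a protease cuts the linker, the N-terminal part enters the membrane and assembles into a pore, through which cytokines leave the cell and which can lead to the lytic death called pyroptosis. Gsdmd is cut by the inflammatory caspases Casp1 and Casp4, and human GSDMC by caspase 8. The A and C branches are expanded into clusters of close paralogs in the mouse, and both are known mainly from epithelia, the A branch from skin and upper digestive tract and the C branch from the gut.

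Because the gasdermin C genes are close paralogs, the probes that read them are shown first, 5′ to 3′ as the scanner files give them, with positions in mm9. Capitals mark runs of at least 12 bases that a probe shares with another gasdermin probe.
Gsdmc, probe A_51_P150489, chr15:63608169-63608228, minus strand: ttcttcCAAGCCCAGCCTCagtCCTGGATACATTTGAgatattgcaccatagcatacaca
Gsdmc3, probe A_52_P498798, chr15:63689822-63689881, minus strand: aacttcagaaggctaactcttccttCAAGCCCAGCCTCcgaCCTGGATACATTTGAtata
Gsdmc3, probe A_55_P2011101, chr15:63689307-63689366, minus strand: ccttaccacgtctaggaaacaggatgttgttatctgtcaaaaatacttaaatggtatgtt
Gsdmc4, probe A_55_P2164932, chr15:63723278-63723337, minus strand: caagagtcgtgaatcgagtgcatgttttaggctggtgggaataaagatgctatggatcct

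The 4 probes lay within 115.2 kb of chromosome 15 and each was 60 bases long. Probe A_51_P150489 and probe A_52_P498798 shared 28 bases in marked runs, the longest of 15 bases, so these probes for Gsdmc and Gsdmc3 cover a stretch that both genes carry. The other Gsdmc3 probe and the Gsdmc4 probe shared no run of 12 bases with any gasdermin probe. The transcripts that the files list for A_55_P2011101 belong to both Gsdmc3 and Gsdmc2 in RefSeq, so its signal stands for both genes. The transcripts listed for the other 3 gasdermin C probes belonged to the named gene alone. None of the 4 probes shared a run of 16 bases with any of the 39418 other probes on the array, on either strand. Outside the cluster, only the Gsdma2 probe A_55_P2011097 shared such runs, with 5 of those probes and 19 bases at most. Which exon or untranslated part each probe reads was not examined here, and cross-hybridisation between paralogs was not tested.

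Some probes of the other branches are shown too, Gsdma for the largest fall in the family and Gsdme because its 2 probes gave different ratios.
Gsdma, probe A_51_P314107, chr11:98537914-98537973, plus strand: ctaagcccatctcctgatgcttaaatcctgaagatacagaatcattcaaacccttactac
Gsdme, probe A_55_P2175318, chr6:50151747-50151806, minus strand: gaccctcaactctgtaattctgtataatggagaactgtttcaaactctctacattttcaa
Gsdme, probe A_51_P498631, chr6:50157436-50157495, minus strand: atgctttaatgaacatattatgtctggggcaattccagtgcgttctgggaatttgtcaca

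A probe counted as tested when most of its 4 spots were well above background on all 4 arrays in at least 1 genotype, which held for 28396 probes and for 8 of the 11 gasdermin probes. The Gsdma3 probe and both Gsdma2 probes did not pass. Levels below are log2 intensities after background correction and normalization within each array, with mean channel intensities then quantile-normalized between arrays. Ratios are log2 of cKO over control on the same array, and the step between arrays did not change them. Gaps and overlaps of levels across arrays depend on that step. Levels are compared only within a probe, since hybridisation differs between probes. In whole ureters, fewer cells of a type and less RNA per cell cannot be told apart. Over the 44 pairs of a gasdermin probe and an array, the SD of the log2 ratio over spots had a median of 0.054 and reached 0.19, and no gasdermin spot was saturated.

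All 4 probes of the gasdermin C cluster read higher in cKO ureters on every array, by about the same amount. The Gsdmc3 probe that also stands for Gsdmc2, A_55_P2011101, read 14.99, 16.14, 15.49 and 15.67 on arrays 1 to 4 in cKO ureters, against 12.46, 12.82, 11.99 and 12.76 in control ureters. Its lowest cKO level lay 2.18 above its highest control level. The ratios were 2.54, 3.33, 3.50 and 2.91, with a mean of 3.07 ± 0.43 (SD, n = 4 arrays), which is 8.40-fold.

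The second Gsdmc3 probe, A_52_P498798, read 13.62, 14.76, 14.08 and 14.05 in cKO ureters, against 11.33, 11.72, 11.03 and 11.51 in control ureters. The genotypes again did not overlap, with a gap of 1.90. Its ratios were 2.29, 3.03, 3.04 and 2.54, and the mean was 2.73 ± 0.37 (SD, n = 4), or 6.62-fold.

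Gsdmc4, probe A_55_P2164932, read 12.47, 13.43, 12.85 and 12.65 in cKO ureters, against 10.18, 10.63, 9.88 and 10.22 in control ureters. Every cKO level was above every control level, by at least 1.84. The ratios of 2.28, 2.80, 2.97 and 2.44 averaged 2.62 ± 0.32 (SD, n = 4), or 6.16-fold.

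Gsdmc, probe A_51_P150489, the gene that shares its name with human GSDMC, read 13.30, 14.37, 13.80 and 13.80 in cKO ureters, against 11.17, 11.51, 10.86 and 11.35 in control ureters. The gap between the genotypes was 1.79. The ratios of 2.13, 2.86, 2.94 and 2.46 averaged 2.60 ± 0.38 (SD, n = 4), or 6.04-fold. The control levels of all 4 probes were well above background on 4 of 4 arrays, so the cluster was read in control ureters too.

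**Figure D1:**
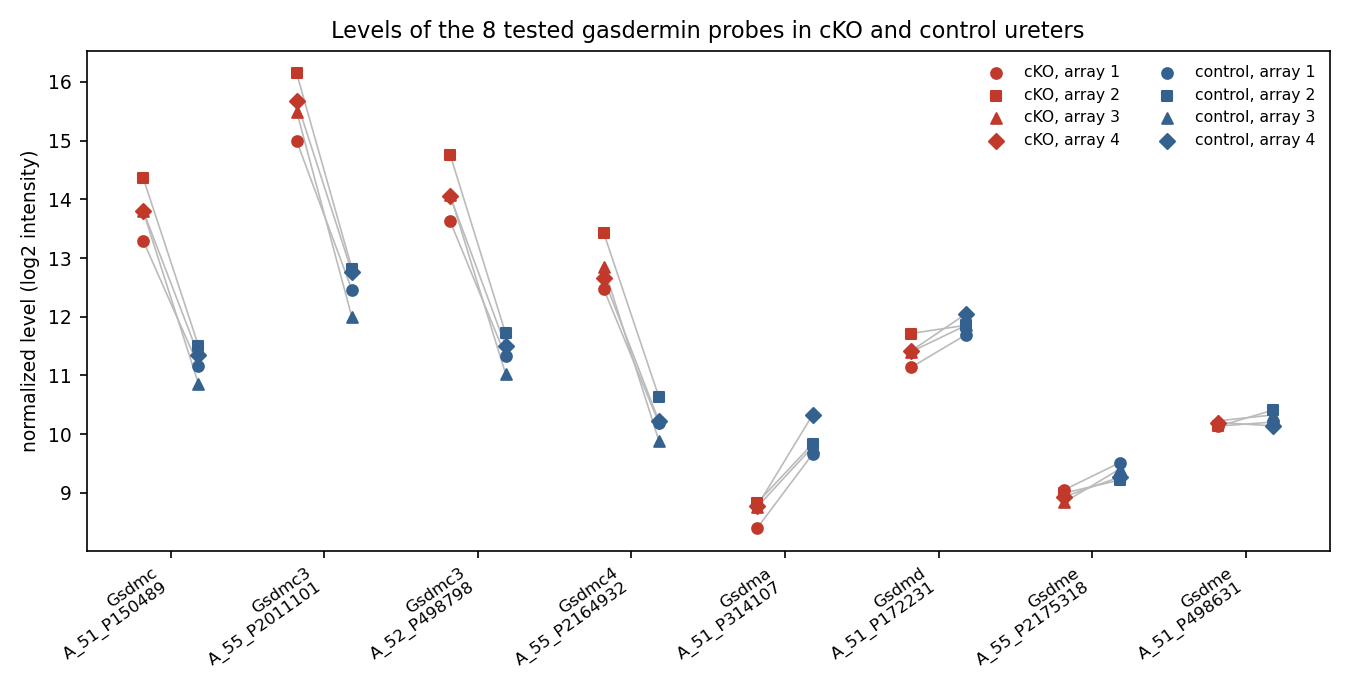
Normalized level (log2 intensity, y axis) of each of the 8 tested gasdermin probes in cKO (red, left) and control (blue, right) ureters, with 1 marker shape per array and a grey line joining the channels of an array. The red and blue points of the 4 gasdermin C probes lie apart by 1.79 or more, those of Gsdma by 0.83 in the other direction, and those of Gsdmd and of Gsdme probe A_51_P498631 overlap.

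The 4 gasdermin C probes moved together from array to array. Their mean ratio was 2.31, 3.01, 3.11 and 2.59 on arrays 1 to 4, or 2.75 ± 0.37 (SD, n = 4), which is 6.75-fold. It was lowest on array 1 and highest on array 3 for each of the 4 probes. The mean was 2.71 where cKO was red and 2.80 where cKO was green, so the dye orientation moved it by less than its SD.

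Small differences between most of the probes recurred on every array. A_55_P2011101 exceeded the second Gsdmc3 probe by 0.34 ± 0.09, the Gsdmc4 probe by 0.45 ± 0.13 and the Gsdmc probe by 0.47 ± 0.07 (mean log2 difference of ratios and SD, n = 4), with the same sign on 4 of 4 arrays. Gsdmc and Gsdmc4 differed by -0.03 ± 0.09, with 2 arrays on each side of 0. The second Gsdmc3 probe exceeded the Gsdmc4 probe by 0.11 ± 0.10. The Gsdmc probe and the second Gsdmc3 probe, which share the marked runs, differed by -0.13 ± 0.04, with the same sign on 4 of 4 arrays. All 4 ratios share the same RNA and arrays, so these differences are descriptions of probes.

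Gsdma, the skin and foregut member whose human counterpart is cut by a streptococcal protease, went the other way. Its probe A_51_P314107 read 8.41, 8.83, 8.76 and 8.78 in cKO ureters, against 9.66, 9.84, 9.78 and 10.33 in control ureters. All cKO levels were below all control levels, with a gap of 0.83. The ratios of -1.26, -1.0, -1.02 and -1.55 averaged -1.21 ± 0.26 (SD, n = 4), a level 2.31-fold lower in cKO. Control array 4 was the highest of the control levels, and array 4 also had the lowest ratio.

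The 2 neighbours of Gsdma in the A cluster, Gsdma2 and Gsdma3, were not read. Mutations of Gsdma3 are known to cause hair loss in mice. Its probe was well above background on 0 of 4 arrays in cKO and on 1 of 4 in control ureters. The Gsdma2 probe A_55_P2011096 was so on 0 arrays in either genotype, and A_55_P2011097 on 0 arrays in cKO and 1 in control. Their levels lay between 6.15 and 6.56 in cKO ureters and between 6.15 and 6.48 in control ureters, and no fold is given for them. The authors' deposited table lists all 3 of these probes at 0 on every array.

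Gsdmd, the gasdermin through which inflammatory caspases open the membrane, was read at 11.14, 11.72, 11.40 and 11.42 in cKO ureters, against 11.70, 11.86, 11.86 and 12.05 in control ureters. These levels overlapped, since cKO on array 2 exceeded control on array 1. Within arrays the ratio was below 0 on 4 of 4, at -0.56, -0.14, -0.45 and -0.64, with a mean of -0.45 ± 0.22 (SD, n = 4), or 1.36-fold lower. Array 2, the male pair, had the ratio nearest to 0.

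Gsdme, a gene of inherited human deafness, gave 2 answers. Probe A_55_P2175318 read 9.05, 9.0, 8.84 and 8.94 in cKO ureters, against 9.51, 9.22, 9.41 and 9.27 in control ureters. The genotypes were 0.17 apart, and the ratios of -0.46, -0.22, -0.56 and -0.33 averaged -0.39 ± 0.15 (SD, n = 4). The other probe of the gene, A_51_P498631, read 10.14, 10.13, 10.23 and 10.20 in cKO ureters, against 10.21, 10.41, 10.33 and 10.14 in control ureters. Its ratios of -0.07, -0.28, -0.10 and 0.06 averaged -0.10 ± 0.14 (SD, n = 4), and its levels overlapped. The 2 probes span 5.7 kb of chromosome 6.

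The first Gsdme probe minus the second was -0.39, 0.06, -0.46 and -0.39 on arrays 1 to 4, so the probes disagreed on arrays 1, 3 and 4 and not on array 2. The transcripts listed for A_51_P498631 matched Gsdme in RefSeq, while none listed for A_55_P2175318 matched there, and its gene rests on the name in the files.

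**Figure D2:**
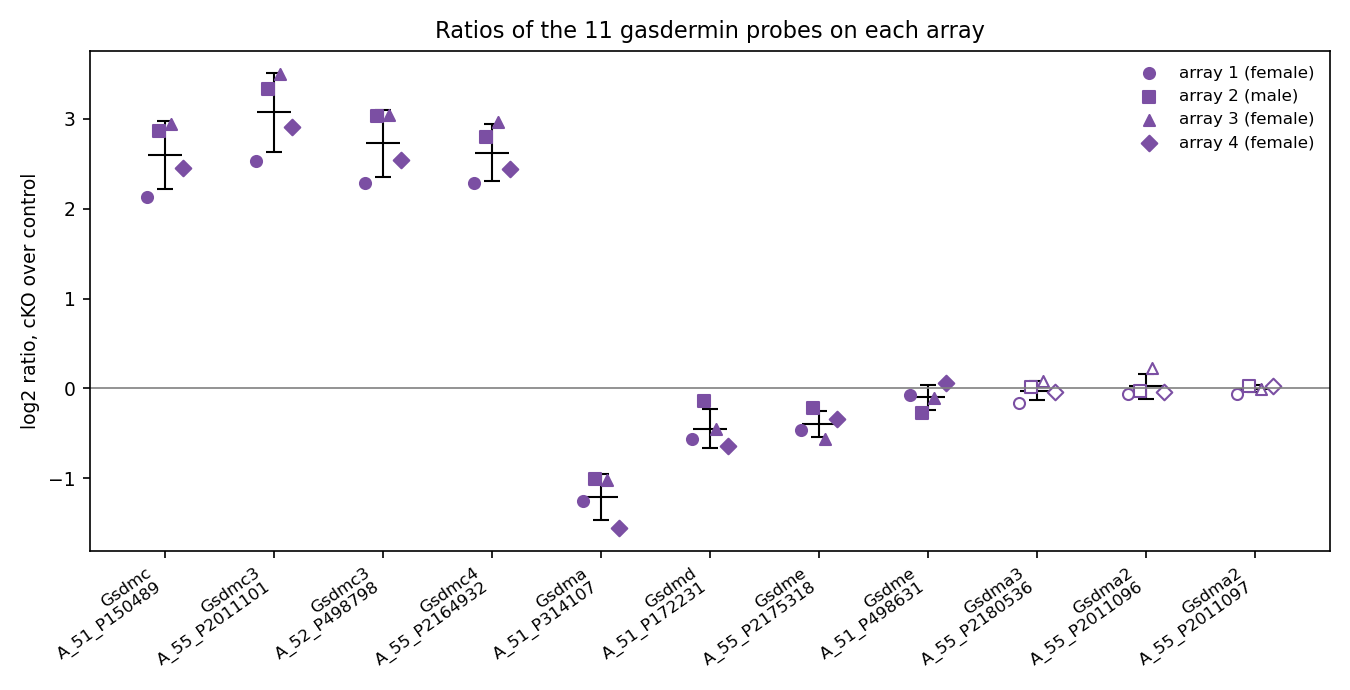
Log2 ratio of cKO over control (y axis) for the 11 gasdermin probes, 1 marker per array, with the mean (horizontal bar) and SD (vertical bar) over 4 arrays; open markers are probes that were not tested. The gasdermin C probes lie between 2.13 and 3.50, the Gsdma probe between -1.55 and -1.0, and the untested Gsdma2 and Gsdma3 probes near 0.

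In the fit across all 28396 tested probes (limma, adjusted p under 0.05), 4 of the 8 gasdermin probes passed as higher in cKO, beside 2.31% of all tested probes. Another 2, those of Gsdma and of Gsdme probe A_55_P2175318, passed as lower, beside 4.66% of all. Levels of the genotypes did not overlap for 6 of the 8 probes, against 8.49% of all tested probes in either direction. The median ratio was 1.25 over the 8 probes and 0.00 over all tested probes. No probe lay near 1.25, since the gasdermin C probes averaged 2.60 to 3.07 and the others -1.21 to -0.10. Over 13 alternatives the calls of Gsdma and the 4 gasdermin C probes held, and that of Gsdme probe A_55_P2175318 ended without array 1, without array 3 and without array 4. Gsdmd, just outside the threshold, was called lower under 5 of the 13, among them the fit without array 2. These counts follow from how the family was chosen and nothing is read from them.

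The male pair was set against the female pairs beside the dye term, a contrast that did not choose the family and that comes down to array 2 minus array 4. None of the 28396 tested probes passed in limma, a share of 0%, while 1540 had an unadjusted p under 0.05. Of the 8 gasdermin probes, 2 had an unadjusted p under 0.05: the male ratio minus the female ratio was 0.55 for Gsdma and 0.49 for Gsdmd, both with an adjusted p of 0.85 or higher. For the 4 gasdermin C probes this difference lay between 0.36 and 0.49. With 1 male pair, sex cannot be told apart from that pair.

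The genes around the gasdermins were tested, since the choice of the family did not use them. Within 500 kb of a gasdermin probe stood 86 other genes, 72 of them tested, and each was read by its brightest tested probe. In limma 0 of the 72 rose and 8 fell, or 11.1%, against 2.89% of all genes higher and 5.4% lower. At an unadjusted p under 0.05, 2 were higher (2.8%, against 11.4% of all genes) and 15 lower (20.8%, against 12.7%). Rises and falls are given on the log2 scale with the SD over 4 arrays.

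Around the gasdermin C cluster 0 of 3 tested genes passed in limma, and 0 had an unadjusted p under 0.05. Gsdmcl-ps, annotated as a pseudogene relative of the branch, stood at -0.06 ± 0.21, Cyrib, a regulator of the actin cytoskeleton, at 0.08 ± 0.05, and Asap1, an Arf GTPase-activating protein, at 0.08 ± 0.20 (mean log2 ratio and SD, n = 4). Their probes lay 33.6, 37.6 and 196.8 kb from the nearest gasdermin C probe. Gsdmcl1 and Gsdmcl2, relatives named for the branch, have their probes inside the cluster, 6.81 and 2.65 kb from a gasdermin C probe. Neither passed the filter: Gsdmcl1 was above background on 1 of 4 arrays in cKO and 1 in control ureters, and Gsdmcl2 on 2 in cKO and 1 in control. The ratios of Gsdmcl1 and Gsdmcl2 were at most 0.05 and 0.25 on any array. They were read mostly near background, so these 2 probes do not show whether Gsdmcl1 and Gsdmcl2 changed. Gsdmcl2 was brightest on array 1, at 7.81 in cKO and 7.60 in control ureters.

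Around Gsdma 4 of 29 tested genes fell. Tns4, a tensin of focal adhesions, fell by 1.50 ± 0.25, with ratios of -1.21, -1.72, -1.69 and -1.38 (adjusted p = 0.00189). Its cKO levels, 6.62 to 6.98, were dim, and the size of its fall depended on the background correction. The mean ratio was -2.05 with a normexp offset of 0 and -2.44 with Agilent's processed signals. Rapgefl1, named as a guanine nucleotide exchange factor-like gene, fell by 0.87 ± 0.17 (adjusted p = 0.00288). Zpbp2, a protein of the sperm acrosome, fell by 0.83 ± 0.15 (adjusted p = 0.00173). Grb7, an adaptor of receptor tyrosine kinases, fell by 0.57 ± 0.25 (adjusted p = 0.0316). The Zpbp2 probe lay 79.5 kb and the Tns4 probe 389.7 kb from the nearest gasdermin A probe, and the nearest tested neighbour, Psmd3, 19.2 kb away, stood at -0.05 ± 0.12. The Grb7 call ended without array 1, where its adjusted p was highest at 0.109, without array 4, with Agilent's processed signals and with the deposited table.

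Around Gsdmd 2 of 34 tested genes fell. Eppk1, the epithelial cytolinker epiplakin, fell by 0.92 ± 0.15 (adjusted p = 0.00278), with all 4 ratios between -1.04 and -0.72. 9030619P08Rik fell by 0.39 ± 0.21 (adjusted p = 0.0439), a call lost under 7 of 14 alternatives, with an adjusted p of up to 0.161. Around Gsdme 2 of 6 fell. Mpp6, a membrane scaffold of the MAGUK family whose probe lies 3.39 kb from the Gsdme probe A_55_P2175318, fell by 0.63 ± 0.19 (adjusted p = 0.00717). Osbpl3, a lipid transfer protein related to the oxysterol-binding protein, fell by 0.80 ± 0.32 (adjusted p = 0.0182), with -1.25 on array 1 and between -0.82 and -0.52 on the others, and its call ended without array 4 and with the deposited table.

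**Figure D3:**
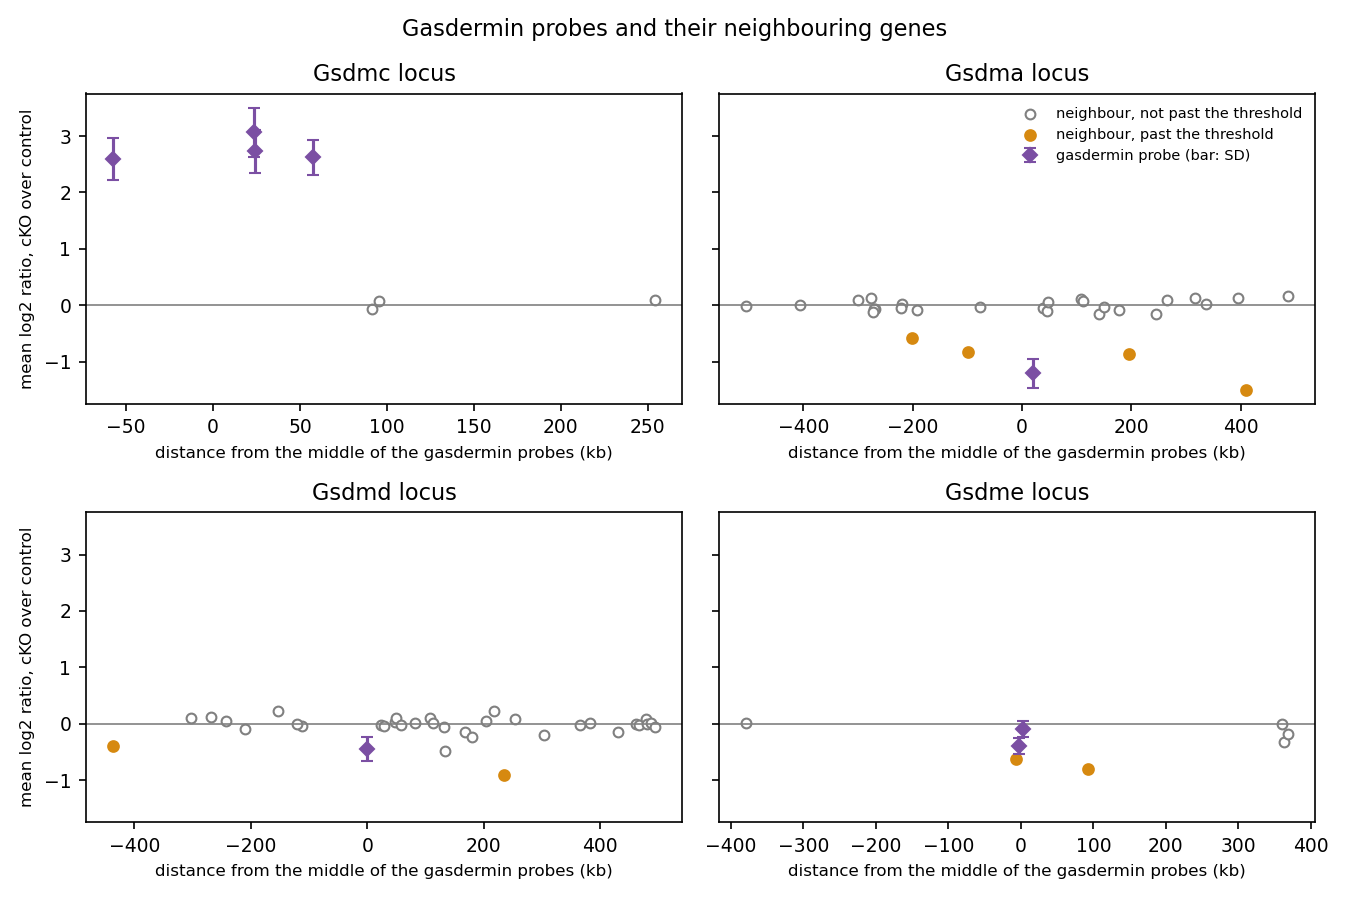
Mean log2 ratio of cKO over control (y axis) of gasdermin probes (purple, bar: SD over 4 arrays) and of tested genes within 500 kb (circles, filled where adjusted p was under 0.05), by distance in kb from the middle of each locus's gasdermin probes (x axis). The 3 tested neighbours of the gasdermin C cluster lie between -0.06 and 0.08, and the filled neighbours of the other loci lie between -1.50 and -0.39.

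Of the gasdermins, promoter sequence from RefSeq (GRCm38.p6) was at hand for Gsdmc3, Gsdma3 and Gsdme. That of Gsdmc3 is shown because it belongs to the cluster that moved together. It runs from 250 bases before the start of the gene to 50 after it, 5′ to 3′ on the minus strand, with the motif found in capitals.
Gsdmc3, chr15:63878509-63878808, minus strand: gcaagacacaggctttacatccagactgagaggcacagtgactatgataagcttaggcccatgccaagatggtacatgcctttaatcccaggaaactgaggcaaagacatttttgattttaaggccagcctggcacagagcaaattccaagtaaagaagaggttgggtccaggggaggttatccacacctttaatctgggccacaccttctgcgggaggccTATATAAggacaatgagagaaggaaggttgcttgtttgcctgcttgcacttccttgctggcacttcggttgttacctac

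Letters of 4 motifs were searched on both strands: CATGNNNNNNCATG, a paired core bound by the p53 family, TGANTCA of AP-1, TTCNNNNGAA of STAT6, and TATANAA of the TATA box. The Gsdmc3 window held 1 match, TATATAA, 29 bases before the start, a motif that 11.3% of the 32851 mouse promoter windows hold. The other motifs stand in 0.7%, 7.8% and 7.0% of those windows, in the order given, and no gasdermin window held them. The windows of Gsdma3 and Gsdme held none of the 4.

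Genes of the pyroptosis pathway and of routes known to act on gasdermin C in the gut were read from 7 lists. Of 74 genes 68 were tested, 4 rose (5.88%, against 2.89% of all genes) and 6 fell (8.82%, against 5.4%), and their median ratio was -0.02. The clearest rise was that of Il18, a cytokine that Casp1 matures and that leaves the cell through Gsdmd pores. Its ratios were 0.90, 1.45, 1.49 and 1.31, with a mean of 1.29 ± 0.27 (SD, n = 4; adjusted p = 0.00298), or 2.44-fold. As for the gasdermin C probes, array 1 was its lowest and array 3 its highest. That order was not particular to Il18. Nlrc4, the neutrophil marker Ly6g and the collecting duct marker Scnn1b had it too, while Il1rn and Tgfb2 did not.

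Il1rn, the antagonist of the interleukin 1 receptor, was the other riser among 7 tested cytokine and membrane rupture genes, at 0.24, 1.41, 1.05 and 0.79 (mean 0.87 ± 0.49, adjusted p = 0.0384). Its call was lost under 5 of 14 alternatives, with an adjusted p of up to 0.108. Among 18 tested inflammasome and cell death platform genes 1 rose and 2 fell. Nlrc4, a sensor of bacterial proteins, rose by 0.61 ± 0.30 (adjusted p = 0.0432). Aim2, a sensor of cytosolic DNA, fell by 0.33 ± 0.11 (adjusted p = 0.0231), and Mlkl, which executes necroptosis, fell by 0.34 ± 0.13 (adjusted p = 0.0298). Nlrc4 lost its call under 7 alternatives, Aim2 under 5 and Mlkl under 6 of 14, with adjusted p-values of up to 0.111, 0.106 and 0.141.

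None of the 9 tested proteases that cut gasdermins passed the threshold in limma, and 1, the granzyme Gzma at 0.21, had an unadjusted p under 0.05. The brightest were Casp6 at -0.18 ± 0.21 and Casp8, which cuts human GSDMC, at -0.02 ± 0.15. Casp1 stood at -0.07 ± 0.19. Likewise 0 of 10 ESCRT genes, which repair membranes holed by gasdermins, passed, 2 had an unadjusted p under 0.05, and the brightest were Chmp4b at 0.02 and Chmp2b at -0.03. Pjvk, the remaining gasdermin relative, known from hereditary deafness, stood at 0.09 ± 0.12 and did not pass (adjusted p = 0.509).

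In the mouse gut, type 2 cytokines acting through STAT6 raise gasdermin C, and loss of TGF-beta receptors does so too. Of 13 tested genes of type 2 cytokine receptors, STAT6 and tuft cells, 0 rose in limma (1 was higher at an unadjusted p under 0.05) and 2 fell. Alox5, an enzyme of leukotriene synthesis, fell by 0.60 ± 0.11 (adjusted p = 0.00415), and Il13ra1, a receptor chain for interleukin 13, fell by 0.32 ± 0.13 (adjusted p = 0.0308). Stat6 itself stood at -0.11 ± 0.10 and Pou2f3, the defining factor of tuft cells, at 0.21 ± 0.22, and neither passed. Among 10 genes of TGF-beta signalling the receptors Tgfbr1 and Tgfbr2 stood at 0.06 ± 0.09 and 0.05 ± 0.11 and did not pass in limma (adjusted p = 0.618 and 0.656). Tgfb2, a ligand, rose by 0.35 ± 0.14 (adjusted p = 0.0325). Smad3, an effector, fell by 0.32 ± 0.05 (adjusted p = 0.0259) and Smad7, an inhibitor of the pathway, fell by 0.33 ± 0.08 (adjusted p = 0.0322). Leaving out any 1 array ended the calls of Il13ra1, Tgfb2, Smad3 and Smad7, with adjusted p-values of up to 0.152, while that of Alox5 held.

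**Figure D4:**
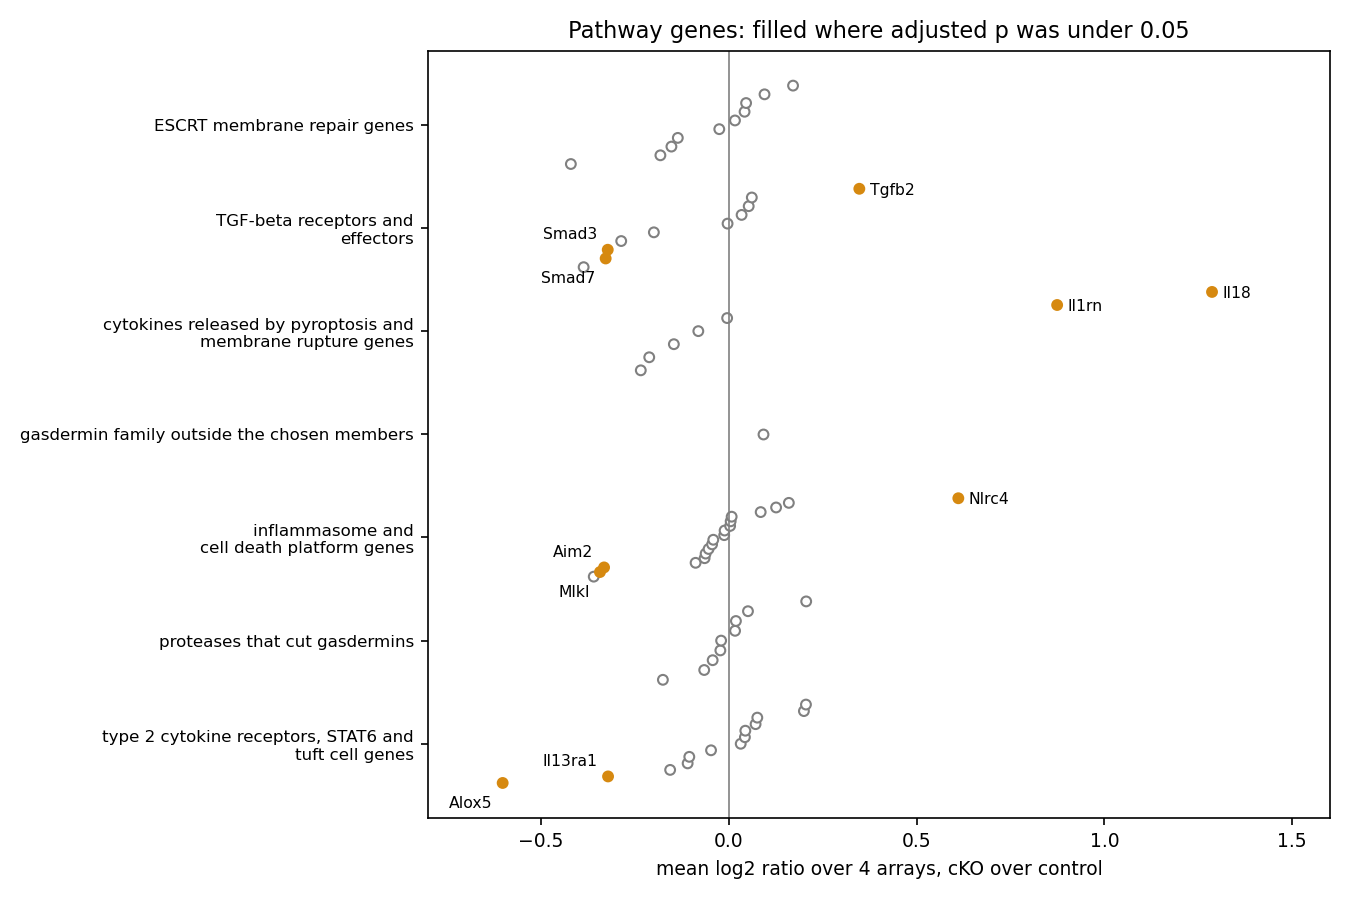
Mean log2 ratio of cKO over control over 4 arrays (x axis) of each tested gene in 7 pathway lists (rows), filled and named where adjusted p was under 0.05. Il18 at 1.29 and Il1rn at 0.87 lie farthest to the right, Alox5 at -0.60 farthest to the left, and no protease or ESCRT gene is filled.

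The genes outside the family whose 4 ratios lay nearest to the mean of the gasdermin C probes were found by the root mean square difference over the 4 arrays, among all genes with a tested probe. Spp1, the secreted glycoprotein osteopontin, was nearest, at 0.21, with ratios of 1.98, 3.02, 3.13 and 2.34. Msln, the surface protein mesothelin, followed at 0.25. Fabp1, a liver and gut fatty acid-binding protein, at 0.51, Prm1, a protamine of sperm chromatin, at 0.51, and Cubn, the endocytic receptor cubilin, at 0.51, came next. The likeness rests on 4 arrays that share their RNA and is a description.

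**Figure D5:**
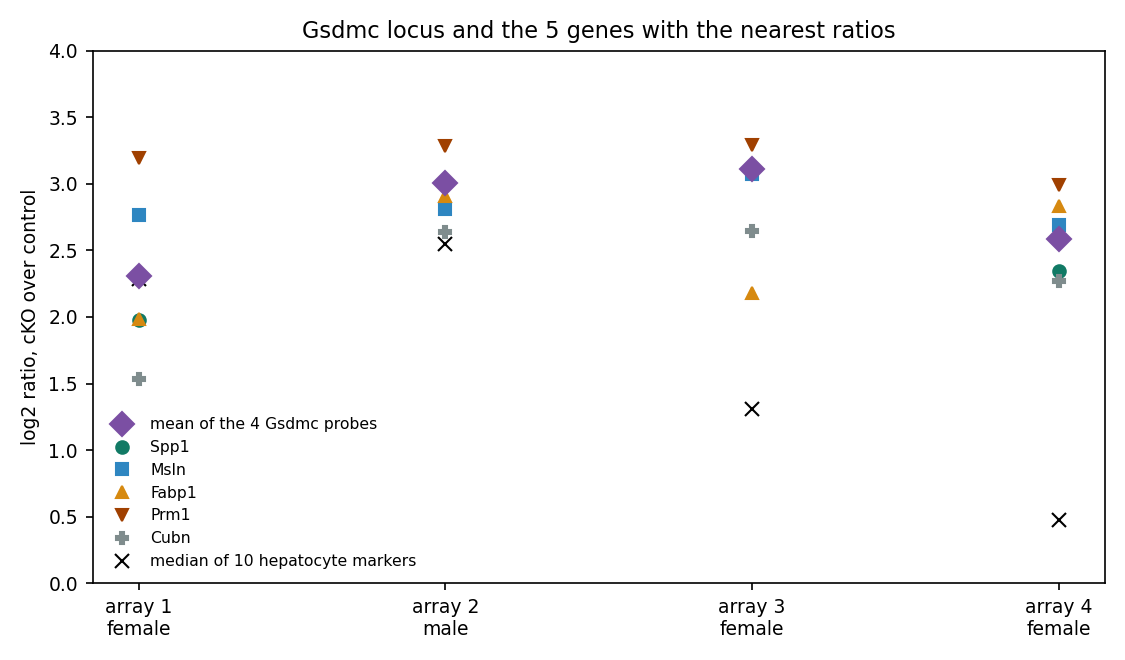
Log2 ratio of cKO over control (y axis) on each of 4 arrays (x axis) for the mean of the 4 gasdermin C probes (purple diamonds), the 5 genes nearest to it and the median of 10 hepatocyte markers (crosses). The gasdermin C mean lies between 2.31 on array 1 and 3.11 on array 3, and the hepatocyte median between 0.47 on array 4 and 2.55 on array 2.

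Marker genes of tissues in and near the ureter were read on the same arrays. Over all genes 2.89% were higher and 5.4% lower in limma, or 11.4% and 12.7% at an unadjusted p under 0.05. The urothelial list had 4 of 10 markers lower and 0 higher in cKO (median ratio -0.61), and 8 lower at an unadjusted p under 0.05. Its mean linear signal, given on the log2 scale, was 15.41 to 16.01 in cKO ureters, against 16.16 to 16.32 in control ureters. Of 5 mesenchymal and smooth muscle markers 0 passed, and 3 were higher at an unadjusted p under 0.05 in limma. Hepatocyte markers had 5 of 10 higher and 0 lower, and 9 higher at an unadjusted p under 0.05. Their mean linear signal was 11.92 to 14.82 (log2) in cKO ureters and 11.87 to 12.80 in control ureters. Trf, the brightest of them in control ureters at 14.60 to 15.04 (log2), weighs most in that signal there and had a mean ratio of -0.56 ± 1.19. The median ratio of the 10 markers was 2.28, 2.55, 1.31 and 0.47 on arrays 1 to 4. The gasdermin C mean on the same arrays was 2.31, 3.01, 3.11 and 2.59, and its relation to these markers was not tested.

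Of 12 markers of intestinal epithelium, where gasdermin C is best known, 8 were tested, Lgals4, a galectin, rose by 1.05 ± 0.63 (adjusted p = 0.0437) and Fabp2, a fatty acid-binding protein, fell by 0.34 ± 0.14 (adjusted p = 0.0267). The list's mean linear signal was 8.96 to 9.92 (log2) in cKO ureters and 9.10 to 9.35 in control ureters. Cdx2, Sis, Alpi and Atoh1 did not pass the filter, while Gpa33 at -0.25 and Cdx1, Vil1, Muc2, Lct and Cdh17 between -0.03 and 0.07 did not pass the test. Of 6 neutrophil markers 2 rose, of 5 collecting duct markers 2 rose and 1 fell, and of 3 tested keratinocyte markers 1 rose and 1 fell. At an unadjusted p under 0.05 in limma, 3 collecting duct markers were higher and 1 lower, and 1 intestinal marker was higher and 2 lower. The neutrophil and keratinocyte counts stayed the same. None of the tested macrophage, T and NK cell or proximal tubule markers passed, and 0 had an unadjusted p under 0.05 in limma. The part of these tissues in the gasdermin ratios was not tested.

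Trp63 checked the labels. Its brightest probe gave ratios of -2.86, -1.68, -2.03 and -2.13, a mean of -2.18 ± 0.50 (SD, n = 4; adjusted p = 0.00196), and 3 of its 4 tested probes passed as lower. The remaining probe, A_55_P2161055, stood at -0.14 ± 0.10 and did not pass in limma (adjusted p = 0.290). Which forms of p63 each probe reads was not examined. Over arrays, 72.4% to 82.6% of spots were well above background in the cKO channel and 72.6% to 90.0% in the control channel, with array 1 the highest in both. The pairwise correlation of ratios between arrays, across tested probes, was 0.49 to 0.70. Without array 1 the gasdermin C mean was 2.95, the highest over the alternatives tried.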

How the data were processed

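The authors deposited linear spot intensities of both channels for each array, and the submitters' processing notes name Agilent Feature Extraction 10.7.3.1 as the software. The deposited value table holds log2 ratios that, set against the processed signals of the same array, ran as cKO over control with slopes of 0.999 to 1.00 and a median of 0 on each array. It lists up to 12487 probes of an array at 0, by a rule that the labels do not state. Mean signals were corrected with normexp (offset 50), normalized by loess within arrays and averaged over spots without outlier flags. For levels alone, the mean intensity of the channels was also quantile-normalized between arrays. The test was limma 3.58.1 (R 4.3.3) with the dye as a term, 2 residual degrees of freedom, and Benjamini-Hochberg adjustment over all 28396 tested probes. The procedure was tested on simulated data. All arrays lay on 1 slide with 1 scan, and their number, 4, limits the precision.

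Genes were named from accessions through RefSeq (28328 probes), symbols (3400) or older symbols (243), and 7458 probes kept the name in the files. The family, the lists and the neighbour window of 500 kb were chosen with earlier results of these data known. Named genes were every gasdermin probe, each passing neighbour, up to 4 passing genes per list or its 2 brightest, and the 5 nearest by likeness. Gzma, Casp1, Stat6, Pou2f3, Tgfbr1, Tgfbr2, Trf, Psmd3, the gasdermin-like neighbours and the intestinal markers were named in addition, after their values were seen.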

Additional observations from a re-analysis of the deposited data

Results flagged for a closer look

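Over 35 results with 4 arrays each, 3 had 1 array set apart from the other 3 by more than Dixon's critical value allows for 4 values; chance alone sets apart about 1 in 20. The Gsdma2 probe A_55_P2011096 had a ratio of 0.23 on array 3, while the other 3 lay between -0.06 and -0.03; it was above background on no array. Rapgefl1, near Gsdma, had -0.61 on array 2, against -0.99 to -0.93 on the others. 9030619P08Rik, near Gsdmd, had -0.082 on array 2, against -0.52 to -0.47 on the others. Array 2 is the male pair in both cases, and whether sex moves with these values cannot be told apart from that pair.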

How the results depend on the processing

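The mean ratio of the gasdermin C probes kept its direction and moved by less than its SD under 13 alternatives, from 2.55 without array 3 to 2.95 without array 1, and no mean ratio of a tested gasdermin probe changed sign or moved by more than its SD. The male minus female difference of the gasdermin probes passed in neither of its 2 alternatives. With the deposited value table, 256 probes were higher and 687 lower, 5 neighbours were lower, and 1 list gene was higher and 3 lower; how its zeros bear on this was not tested. With Agilent's processed signals 1 list gene was higher, and without the filter on dim probes 2 were; the cause was not tested. Leaving out each array gave 334 to 513 probes higher (against 657 over 4 arrays), 754 to 1167 lower (against 1324), 5 to 9 neighbours lower (against 8), and 1 to 3 list genes higher (against 4) and 1 to 2 lower (against 6), with fewer arrays in each fit. The calls of Trp63, Il18, Alox5, Zpbp2, Rapgefl1, Tns4, Eppk1 and Mpp6 held under all 14 alternatives. The size of the ratio depended on the background correction for some dim genes. With a normexp offset of 0 it was -2.05 for Tns4, -1.06 for Zpbp2, -0.77 for Alox5 and -0.56 for Aim2. Each ratio pairs a cKO with a control RNA on its array, so all fits are paired and no further replicate block was added.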
